A study of Mus musculus with 3 samples.

Results

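Ly6a (the Sca-1 antigen), Ly6c1, Ly6c2, Ly6d, Ly6e, Ly6g and Ly6i encode surface antigens of the Ly6 family, and their transcripts were examined in Ly6G+ myeloid cells from the BM of tumour-bearing mice given IL-27. The 7 genes were picked by symbol, without use of their values, from 16072 genes with an FPKM value (fragments scaled by transcript length and by library depth). C57BL/6 mice without engineered alleles were given B16.F10 melanoma cells subcutaneously, and 1 week later an intramuscular adeno-associated virus vector. AAV-IL-27 carried the linked EBI3 and p28 chains of IL-27 behind the CAG promoter, which is active in most cell types, and AAV-Ctrl was the empty vector. The animals of the study were 6 to 10 weeks old when used, and the cells, which the study describes as Gr-1+, were taken 3 weeks after the vector. There were 2 AAV-Ctrl libraries and 1 AAV-IL-27 library, the latter labelled as the second replicate, although the submitters' design text counts 4 mice. All animals thus carried the tumour, and no animal without tumour or vector was analysed here.

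Ly6 proteins are small cysteine-rich molecules with finger-like loops, usually held on the outer face of the membrane by a glycosylphosphatidylinositol (GPI) anchor. Several are used to sort blood cells. Ly6G marks neutrophils, Ly6C (from Ly6c1 and Ly6c2) is high on inflammatory monocytes and also present on neutrophils, and the RB6-8C5 antibody to Gr-1 binds Ly6G and can also bind Ly6C. Sca-1 marks haematopoietic stem cells, and Ly6d marks progenitors on the way to the B lineage. Ly6a and Ly6e are known to respond to interferons.

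The 7 genes lie on chromosome 15 (GRCm38, GENCODE M21). Ly6d (chr15:74762056-74763620, minus strand) stands first, followed by Ly6e (chr15:74955051-74959905, plus strand), Ly6i (chr15:74979534-74983430, minus strand) and Ly6a (chr15:74994877-74998031, minus strand). Ly6c1 (chr15:75044018-75048830, minus strand), Ly6c2 (chr15:75108158-75111970, minus strand) and Ly6g (chr15:75155240-75159126, plus strand) complete the order. The first 150 coding bases of 5 of them are printed here from GENCODE M21 transcripts, because they show which genes short fragments can tell apart. Each stretch spans 2 exons, namely chr15:75110548-75111667 for Ly6c2, chr15:75047390-75048511 for Ly6c1, chr15:74996489-74997604 for Ly6a, chr15:75155645-75156773 for Ly6g and chr15:74762752-74763560 for Ly6d. In Ly6c1, Ly6a and Ly6g, capitals mark bases that differ from Ly6c2, whereas in Ly6d they mark the start codon.
Ly6c2: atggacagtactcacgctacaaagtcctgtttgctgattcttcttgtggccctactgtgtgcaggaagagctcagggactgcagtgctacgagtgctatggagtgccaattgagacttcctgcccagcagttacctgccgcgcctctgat
Ly6c1: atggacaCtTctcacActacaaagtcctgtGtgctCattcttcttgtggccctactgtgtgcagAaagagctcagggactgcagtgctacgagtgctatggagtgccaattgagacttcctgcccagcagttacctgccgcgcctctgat
Ly6a: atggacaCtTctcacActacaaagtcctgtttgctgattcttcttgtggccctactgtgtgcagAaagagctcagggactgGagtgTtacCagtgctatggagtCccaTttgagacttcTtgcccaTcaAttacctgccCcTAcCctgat
Ly6g: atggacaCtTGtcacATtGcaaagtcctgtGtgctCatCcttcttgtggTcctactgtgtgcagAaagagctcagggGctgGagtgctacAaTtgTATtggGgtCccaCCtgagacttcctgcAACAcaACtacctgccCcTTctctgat
Ly6d: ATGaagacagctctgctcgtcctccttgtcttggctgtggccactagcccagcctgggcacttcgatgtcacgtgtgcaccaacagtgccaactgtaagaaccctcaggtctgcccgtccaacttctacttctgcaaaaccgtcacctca

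Over these 150 bases, Ly6c1 differed from Ly6c2 at 6 positions, Ly6a at 16, Ly6i at 20 and Ly6g at 31. Over the whole coding sequence, Ly6c1 and Ly6c2 were identical at 97.7% of aligned positions and Ly6a and Ly6i at 86.4%. Ly6d and Ly6e shared between 48.5 and 53.0% with any other member. Of all 100-base windows of its transcripts, Ly6c1 shared 15.3% with another gene and Ly6c2 shared 15.8%, in each case with the other of the pair, whereas the remaining 5 genes shared none. Of 50-base windows, the shares were 36.7% for Ly6c1, 33.0% for Ly6c2, 10.04% for Ly6a, 4.97% for Ly6i and 0.448% for Ly6g, and Ly6d and Ly6e shared none. The read length is not given in the sources used here. The separate values of Ly6c1 and Ly6c2 are therefore uncertain, as to a lesser degree are those of Ly6a and Ly6i, and sums are given as well. The RefSeq non-coding gene Gm28068 spans Ly6i and Ly6a, has no row in the table, and whether counting used the strand is not stated.

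**Figure D1:**
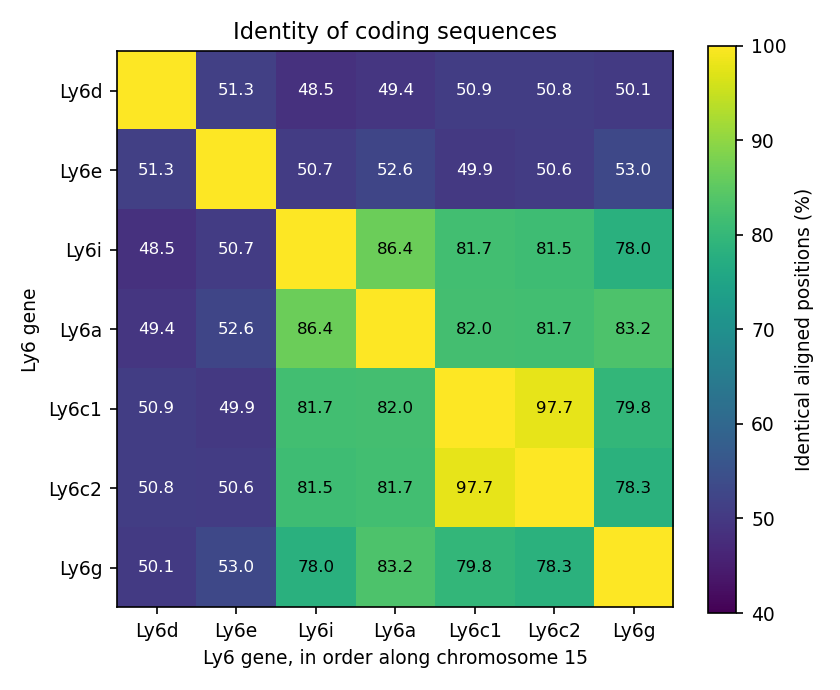
Identity of coding sequences, in percent of aligned positions, for each pair of the 7 Ly6 genes in their order along chromosome 15. Ly6c1 and Ly6c2 stand out at 97.7%, while Ly6d and Ly6e lie between 48.5 and 53.0% with every other gene.

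The cells carried the transcripts that their label calls for, together with erythroid ones. Ly6g itself stood between 586 and 766 FPKM, and all 16 late neutrophil genes were detected in every library, led by S100a9 and S100a8, which encode the calprotectin subunits. Estimated depth was between 19100000 and 19450000 fragments per library. The number of genes with an FPKM of at least 1 was 9206 and 9337 in the controls and 8773 with IL-27. Of other cell types, 15 of 15 erythroid and 13 of 16 macrophage genes tested lay at least 1 log2 unit below each AAV-Ctrl library. Among all genes tested, 2.32% did so. The T and NK cell list (3 tested) and the stem cell list (2 tested) had 0 called.

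Of the 7 Ly6 genes, 1 (Ly6d) was lower in the AAV-IL-27 library by at least 1 unit of log2(FPKM + 1) than each AAV-Ctrl library, a fold rule that 2.32% of the 9130 genes tested (those whose mean FPKM was 1 or more) also met. None was higher by this rule, which 0.307% of all genes met. Ly6a, Ly6c2 and Ly6e lay above both AAV-Ctrl libraries, where 38.9% of all genes lay, and Ly6d, Ly6g and Ly6i lay below both, where 41.9% lay. Ly6c1 lay between. The median difference of the 7 genes was 0.05, against -0.01 over all genes tested. The table also has a column named as another AAV-IL-27 replicate, but no label ties it to a sample and it was not analysed here. With 1 AAV-IL-27 library analysed, that group has no replicate error and no p-value is given, and each difference is set beside that between the AAV-Ctrl libraries, the size of which was 0.087 for the median gene and under 0.335 for 95% of genes.

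**Figure D2:**
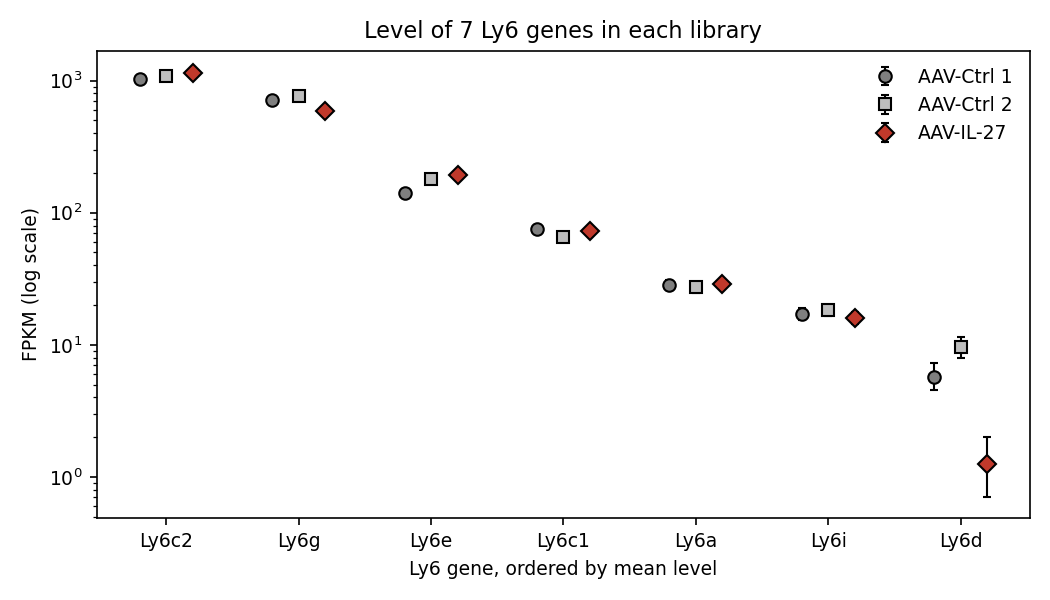
Level of the 7 Ly6 genes in FPKM on a log scale, ordered by mean level, with 1 point per library. Bars are exact Poisson intervals at the 95% level on estimated fragments and cover counting error only. Ly6c2 leads at 1023 to 1145 FPKM, and Ly6d is the one gene at which the AAV-IL-27 point, at 1.25 FPKM, lies far under both AAV-Ctrl points.

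Where values of the libraries stand in a row, AAV-Ctrl 1 comes first, then AAV-Ctrl 2, then AAV-IL-27. The 7 levels spanned from single digits to over 1000 FPKM, a unit that is per length and so allows genes to be compared. Ly6c2 was the highest, ranking 51 of 16072 genes by mean level, and Ly6g ranked 88. Ly6e, Ly6c1, Ly6a, Ly6i and Ly6d followed in this order. The ranges of neighbouring genes over the 3 libraries did not overlap at any step. Together the 7 genes made up 0.337% and 0.367% of all FPKM in the controls against 0.356% with IL-27, so their total in AAV-IL-27 lay within the AAV-Ctrl range.

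Ly6c2, the more abundant source of Ly6C, was measured at 1023 FPKM in AAV-Ctrl 1, 1086 FPKM in AAV-Ctrl 2 and 1145 FPKM in AAV-IL-27. The AAV-IL-27 value was the highest of the 3, at 109% of the AAV-Ctrl mean of 1055 ± 44.6 (SD, n = 2). On the log2 scale it was 0.16 above AAV-Ctrl 1 and 0.08 above AAV-Ctrl 2. The gap to the nearer control was thus no larger than that between the controls, which was 0.09.

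Ly6c1, the near-identical partner, stood at 75.1 and 66.0 FPKM in the controls and 73.1 FPKM with IL-27, between the AAV-Ctrl values. The sum of Ly6c1 and Ly6c2, which depends little on how shared fragments were divided between these genes of similar length but would change if such fragments were dropped or counted for both, was 1098, 1152 and 1218 FPKM. The difference of the sum was 0.11 on the log2 scale, close to the 0.12 of Ly6c2 on its own. Adding Ly6a and Ly6i gave a difference of 0.11 again. Ly6c2 exceeded Ly6c1 by ratios of 13.6, 16.5 and 15.7 in the same order of libraries.

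Ly6g encodes the antigen that named the sorted cells. Its level was 712 FPKM in AAV-Ctrl 1, 766 FPKM in AAV-Ctrl 2 and 586 FPKM in AAV-IL-27. The AAV-IL-27 library was the lowest, at 79.3% of the AAV-Ctrl mean of 739 ± 38.4 (SD, n = 2), and the counting intervals of the 3 values did not overlap. The log2 differences were -0.28 from AAV-Ctrl 1 and -0.39 from AAV-Ctrl 2, beside 0.11 between the AAV-Ctrl libraries. This exceeds the gap between the controls but falls short of the 1 log2 unit of the fold rule. Over all genes tested, 38.9% lay above both controls and 41.9% below both. The 16 late neutrophil genes had a median difference of 0.03, with 8 above and 3 below both controls. The 11 early granule genes had a median of -0.04, with 5 above and 5 below both. The 5 above were Elane, Prtn3, Mpo, Ctsg and Ms4a3, of which all but Ms4a3 encode proteins of primary granules. The 5 below were Chil3, Ltf, Lcn2, Ngp and Camp, of which Ltf, Lcn2, Ngp and Camp encode secondary granule proteins, with differences from -0.30 (Chil3) to -0.04 (Camp). Because Ly6c2 was the highest and Ly6g the lowest in AAV-IL-27, the ratio of Ly6c2 to Ly6g was 1.44 and 1.42 in the controls and 1.95 with IL-27. Among genes of monocytes, the cells in which Ly6C is highest, the 10 tested had a median difference of 0.28, and all 12 listed summed to 326 to 359 FPKM in the controls and 356 FPKM with IL-27. Of the tested genes, 1 was called higher and 1 lower, against 0.307% and 2.32% of all genes tested. The higher was Cd14, a co-receptor for lipopolysaccharide (14.95, 12.9 and 39.6 FPKM). The part of monocytes in the Ly6 values was not tested.

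Ly6a, the Sca-1 gene, was nearly level. It stood at 28.3 FPKM in AAV-Ctrl 1, 27.2 FPKM in AAV-Ctrl 2 and 29.0 FPKM in AAV-IL-27, or 104% of the AAV-Ctrl mean of 27.8 ± 0.757 (SD, n = 2). The AAV-IL-27 value was the highest, by 0.03 and 0.09 on the log2 scale. The fragments behind these values were estimated at 478, 469 and 491, with intervals of 436 to 523, 428 to 513 and 449 to 536 that overlap throughout, so no difference was detectable at this depth. Ly6a is also a marker of stem cells, whose 12 listed genes summed to 24.3 to 25.1 FPKM in the controls and 25.02 FPKM with IL-27.

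Ly6e, which is broadly expressed and affects the entry of several viruses, was measured at 139.8 FPKM in AAV-Ctrl 1, 181 FPKM in AAV-Ctrl 2 and 192 FPKM in AAV-IL-27. AAV-IL-27 was the highest, at 119% of the AAV-Ctrl mean of 161 ± 29.3 (SD, n = 2). The difference was 0.45 from AAV-Ctrl 1 but 0.08 from AAV-Ctrl 2. The AAV-Ctrl libraries differed from each other by 0.37, a size reached by 3.68% of genes, so the gap to the nearer control lay within the spread of the controls.

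Ly6i, a close relative of Ly6a, stood at 17.2 FPKM in AAV-Ctrl 1, 18.2 FPKM in AAV-Ctrl 2 and 16.0 FPKM in AAV-IL-27. AAV-IL-27 was the lowest, by 0.10 and 0.18 on the log2 scale, yet the intervals of its estimated 333 fragments (298 to 371) and of those of AAV-Ctrl 1 (321 to 396) and AAV-Ctrl 2 (347 to 425) overlap.

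**Figure D3:**
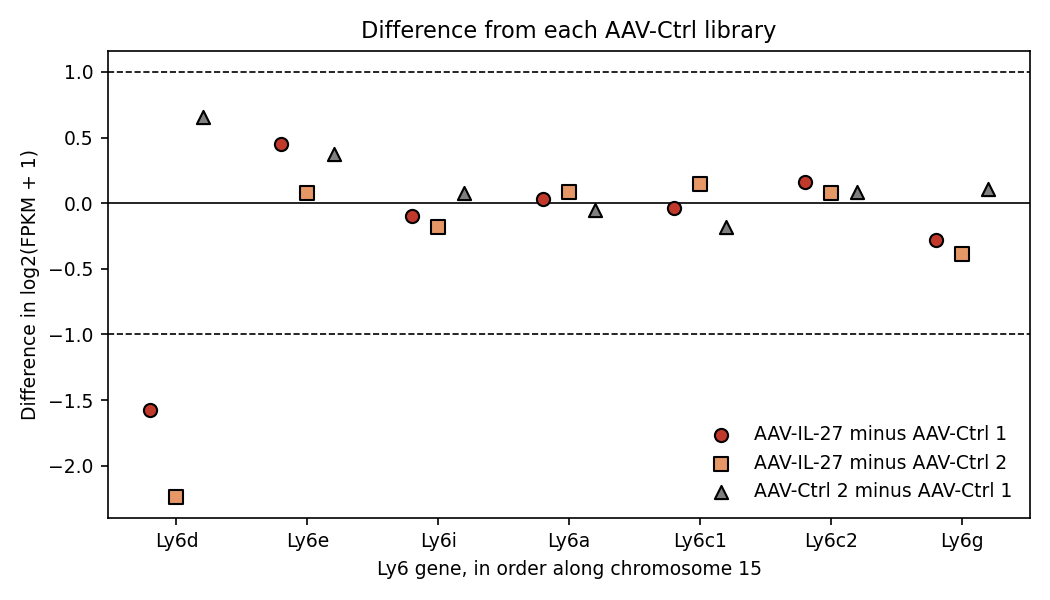
Difference in log2(FPKM + 1) for each Ly6 gene along chromosome 15, as AAV-IL-27 minus AAV-Ctrl 1 (circles), AAV-IL-27 minus AAV-Ctrl 2 (squares) and AAV-Ctrl 2 minus AAV-Ctrl 1 (triangles). Dashed lines mark the fold rule of 1 log2 unit, which Ly6d alone passes, at -1.58 and -2.24.

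Ly6d fell furthest. It was measured at 5.71 FPKM in AAV-Ctrl 1, 9.60 FPKM in AAV-Ctrl 2 and 1.25 FPKM in AAV-IL-27. The AAV-IL-27 library was thus at 16.3% of the AAV-Ctrl mean of 7.66 ± 2.75 (SD, n = 2). On the log2 scale it lay 1.91 below that mean, with differences of -1.58 from AAV-Ctrl 1 and -2.24 from AAV-Ctrl 2. These values rest on few fragments, an estimated 74, 126 and 16, with intervals of 58.1 to 92.9, 105 to 150.02 and 9.15 to 25.98 that do not overlap. The AAV-Ctrl libraries themselves differed by 0.66, a size that 0.624% of genes reached. By the difference from the nearer control, Ly6d ranked 83 from the lowest among the 9130 genes. In bulk samples such as these, fewer cells of a type and less RNA per cell cannot be told apart.

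Genes of B cells and their progenitors moved with Ly6d. Of 16 such genes, 8 were abundant enough to be tested, and all 8 lay below both AAV-Ctrl libraries, as did 41.9% of all genes tested. The fold rule was met downwards by 6 of the 8, against 2.32% of all genes tested. The median difference of the 8 was -1.72. The summed level of the 16 genes was 39.2 and 53.3 FPKM in the controls and 7.66 FPKM with IL-27. Ms4a1, which encodes CD20 (2.22, 2.96 and 0.03 FPKM), was low but present in the controls. Cd79a and Cd79b, the signalling chains of the B cell receptor, stood at 9.78 and 9.81 FPKM in AAV-Ctrl 1, 13.6 and 11 FPKM in AAV-Ctrl 2, and 1.49 and 1.81 FPKM in AAV-IL-27. Like Ly6d, both were highest in AAV-Ctrl 2 and lowest in AAV-IL-27. Rag2, a recombinase of lymphoid progenitors, was the only gene of the list at 0, in AAV-IL-27. It was at 0.06 and 0.09 FPKM in the controls, an estimated 4 and 6 fragments, and a difference was not detectable at this depth. The part of B lineage cells in the Ly6d difference was not tested. The 12 genes of plasmacytoid dendritic cells, whose precursors can also carry Ly6d, summed to 24.5 and 30.1 FPKM in the controls and 25.5 FPKM with IL-27. Most of this sum was Runx2, a transcription factor also used by other cells (14.8, 13.9 and 20.1 FPKM). Without Runx2, a choice made after seeing the data, the other 11 genes summed to 9.71, 16.3 and 5.39 FPKM. Of this sum, Spib, also a gene of B cells, made up 2.77, 5.76 and 0.55 FPKM. Below both controls lay 10 of the 11, most of them too low to be tested. Of the 4 genes tested, Runx2 included, 3 lay below both controls, against 41.9% of all genes tested. The fold rule was met by 1 of the 4 (Spib), against 2.32% of all genes tested. Siglech, the defining marker, was at 0.34, 0.39 and 0.33 FPKM, from an estimated 13, 16 and 13 fragments, and a difference was not detectable at this depth. The part of plasmacytoid dendritic cells in the Ly6d difference was not tested either.

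**Figure D4:**
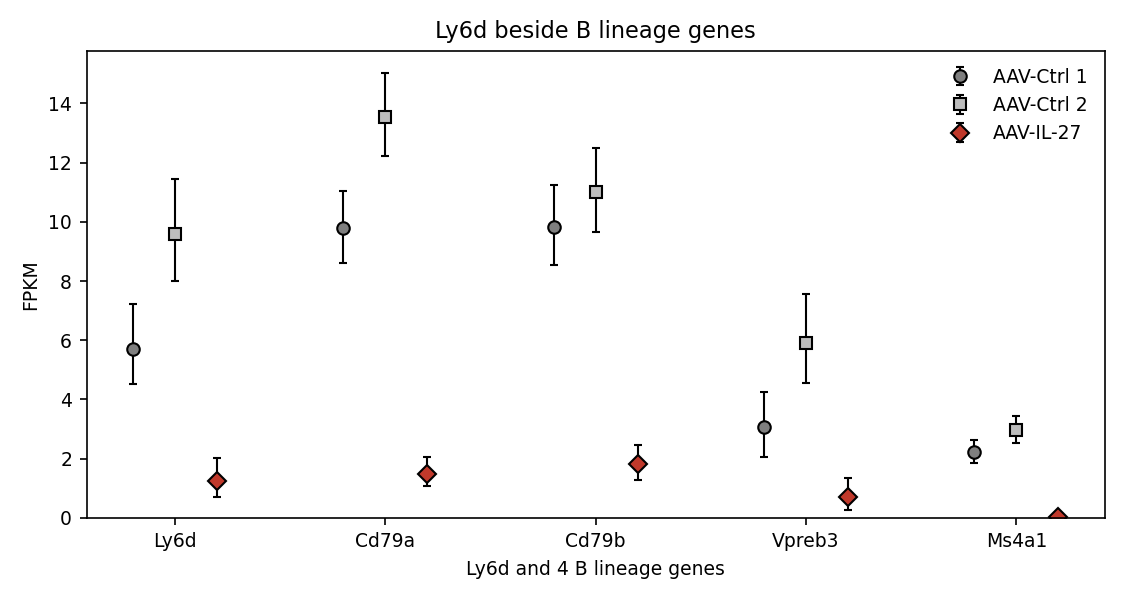
FPKM of Ly6d and of 4 B lineage genes named in the text (Cd79a, Cd79b, Vpreb3 and Ms4a1), with 1 point per library and exact Poisson intervals at the 95% level on estimated fragments. In every gene shown the AAV-IL-27 point lies under both AAV-Ctrl points and AAV-Ctrl 2 is the highest, as for Ly6d at 5.71, 9.60 and 1.25 FPKM. Vpreb3 and Ms4a1 are among the genes picked for their likeness to Ly6d over these libraries, so their pattern follows from that choice. Dntt of the same list, not shown, was instead highest in AAV-Ctrl 1, at 0.78, 0.57 and 0.18 FPKM.

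The 5 genes whose pattern over the 3 libraries was most like that of Ly6d, by Euclidean distance of centred log2(FPKM + 1), were Spib, Vpreb3, Car1, Ms4a1 and Slc38a5, at distances of 0.21 to 0.29. Spib is a transcription factor of B cells and plasmacytoid dendritic cells and was at 2.77, 5.76 and 0.55 FPKM. Vpreb3, a partner of the pre-B cell receptor, was at 3.06, 5.92 and 0.69 FPKM. Car1, a carbonic anhydrase abundant in erythroid cells, was at 14.4, 18.2 and 3.74 FPKM. Slc38a5, an amino acid transporter, was at 3.13, 4.09 and 0.37 FPKM. Likeness over 3 libraries is a description only.

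The wider Ly6/uPAR family was mostly too low to be tested. Of 41 other family genes listed, 19 had values and 5 were tested, of which 0 met the fold rule in either direction and whose median difference was -0.05. Cd177, a GPI-anchored neutrophil antigen, was more abundant than any of the 7 Ly6 genes, at 1249, 1306 and 1202 FPKM. Plaur, the urokinase receptor, was at 273, 275 and 306 FPKM. The pseudogene 9030619P08Rik (31.7, 37.4 and 33.2 FPKM), Ly6g5b (18.5, 21.8 and 18.9 FPKM) and Lypd6b (2.18, 1.42 and 2.20 FPKM) made up the remainder. Lypd6b and Plaur were above both controls and Cd177 was below both. Among the genes too low to be tested, Cd59a, a GPI-anchored inhibitor of complement, stood at 1.26, 1.20 and 0.22 FPKM, or 17.9% of the AAV-Ctrl mean, from an estimated 40, 39 and 7 fragments whose intervals did not overlap between the groups. Ly6g6f stood at 0.52, 0.72 and 0.21 FPKM, from an estimated 11, 15 and 4 fragments whose intervals overlapped.

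Few chromosomal neighbours of the 7 genes had values. Of 26 other RefSeq genes within 5 places of a member, 4 had a row and none of these reached a mean FPKM of 1, while the others were not analysed here. The highest was Lynx1, a Ly6 protein that acts on nicotinic acetylcholine receptors, at 0.23, 0.28 and 0.05 FPKM. The AAV-IL-27 value was 19.6% of the AAV-Ctrl mean, from an estimated 4 fragments against 17 and 22 in the controls. Its interval, 1.09 to 10.2 fragments, overlapped that of AAV-Ctrl 1 (9.90 to 27.2) but not that of AAV-Ctrl 2 (13.8 to 33.3). Ly6m, listed under its older name, stood at 0.20, 0.08 and 0.11 FPKM, and Ly6k at 0.22, 0 and 0 FPKM.

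The genes that build and attach the GPI anchor, on which these antigens depend, gave no call. Of 28, 27 had values and 20 were tested. Of these, 10 lay below both controls and 7 above both, against 41.9% and 38.9% of all genes tested. Their differences ran from -0.40 to 0.20 with a median of -0.06. Pigq, with the lowest, was at 15.7, 15.4 and 11.6 FPKM, a difference similar in size to the -0.33 of Ly6g. The highest were Pigx at 42.7, 42.9 and 44.5 FPKM and Dpm2 at 34.3, 32.9 and 38.8 FPKM.

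Interferon-responsive genes were compared because Ly6a and Ly6e belong to this class by reputation. Of 48 tested, 3 met the fold rule upwards and 0 downwards, against 0.307% and 2.32% of all genes tested. Above both controls lay 36 and below both 8, against 38.9% and 41.9% of all genes tested. The median difference of the list was 0.38. AAV-Ctrl 2 already exceeded AAV-Ctrl 1 by a median of 0.20 in this list. Cxcl10, a chemokine for T cells, was at 1.29, 2.85 and 11.8 FPKM. Cd274, which encodes PD-L1, was at 5.44, 5.62 and 15.9 FPKM. Gbp9, a guanylate-binding protein gene with close relatives, was at 7.19, 7.21 and 19.5 FPKM. Beside these, the differences of Ly6a (0.06) and Ly6e (0.27) were below the list's median. Of 9 genes of the IL-27 receptor and its signalling, 7 were tested and 0 met the fold rule, with a median difference of 0.11 and differences from -1.09 to 0.84. The extremes were feedback inhibitors of cytokine signalling. Socs3 stood at 49.2, 35.5 and 19.1 FPKM, below both controls, which themselves differed by 0.46, and Socs1 stood at 3.35, 3.55 and 6.97 FPKM, above both. The highest by level were Jak1, at 122, 122 and 132 FPKM, and Stat3, at 82.6, 76.6 and 76.9 FPKM. Il27ra, the receptor's specific chain, was detected at 0.14, 0.26 and 0.04 FPKM and was too low to be tested.

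**Figure D5:**
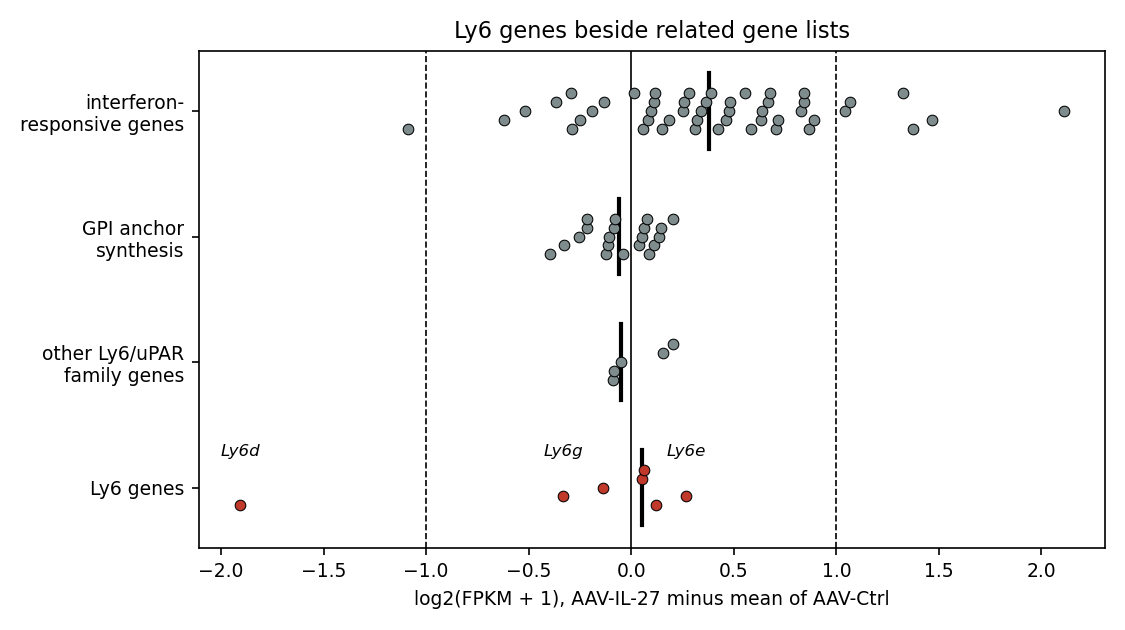
Difference in log2(FPKM + 1), AAV-IL-27 minus the AAV-Ctrl mean, for the 7 Ly6 genes and for interferon-responsive, GPI anchor and other Ly6/uPAR family genes, with 1 point per tested gene and a vertical bar at each list's median. The interferon-responsive list is centred at 0.38 and the Ly6 genes at 0.05, with Ly6d apart at -1.91. Dashed lines mark 1 log2 unit from the mean, whereas the fold rule needs that distance from each control.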

How the data were processed

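RNA-seq of BM Ly6G+ cells was analysed for 2 AAV-Ctrl libraries and 1 AAV-IL-27 library. Poly(A) RNA was selected, made into cDNA with the strand marked and read on DNBSEQ, and the authors deposited FPKM values with 2 decimals for 16073 rows (mm10 per the submitters' processing notes), of which 1 without a symbol was dropped. The aligner, counter and annotation are not given in the sources used here. Per-sample values in 1 further column, whose name is that of another AAV-IL-27 replicate, belonged to none of the labelled samples and stayed out.

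The Ly6 genes and all lists were chosen with earlier results of these data known. Differences were taken as log2(FPKM + 1), AAV-IL-27 minus the AAV-Ctrl mean, and genes were tested at a mean FPKM of at least 1. A gene was called at 1 log2 unit or more from each AAV-Ctrl library. Named genes were the 7 members, tested family genes, called list genes (at most 4 per list, otherwise the highest 2), the highest 3 neighbours and the 5 genes most like the member with the largest difference. Ms4a1, Cd79a, Cd79b, Rag2, Dntt, Siglech and Il27ra (markers) were named outside this rule, after their values were seen. So were Runx2, Cd59a, Ly6g6f, Socs1, Socs3, Pigq and the early granule genes. Some genes of the lists are counted but not reported here by name.

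The table holds no counts. Depth was fitted from FPKM steps over 10768 genes with a single transcript (70 nt subtracted from lengths), with 73.9 to 77.7% of low values within 0.2 of whole fragments, so fragments are estimates, no count test was run, and exact Poisson intervals at the 95% level cover counting error only. The depth fit was also run on fragments simulated with the same transcript lengths and the same 70 nt subtracted, so that run cannot check these settings. Sequences and positions came from GENCODE M21 and gene order from RefSeq. Scripts ran under Python 3.11.15 with Biopython 1.88, matplotlib 3.10.9, scipy 1.17.1, pandas 2.3.3 and numpy 2.4.6. Alternatives were pseudocounts of 0.1 and 0.01, other filters and thresholds, 2 rescalings, and leaving out each AAV-Ctrl library.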

Additional observations from a re-analysis of the deposited data

How the results depend on the processing

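No paired analysis was possible because just 1 replicate number occurs in both groups. Of 46 alternatives for the Ly6 genes and their sums, 41 moved the value by no more than the SD of its differences from the controls. Runs that left out a control, the only kind run for the sums, stay within this SD by construction and so are no check. None of the alternatives reversed the direction of Ly6d, which ranged from -2.56 to -1.58. The cause of the changes listed here was not tested. Ly6d was -2.48 with a pseudocount of 0.1 and -2.56 with 0.01. Ly6a was 0.10 after rescaling to equal FPKM totals and 0.12 by median ratios, which also gave -0.083 for Ly6i. Ly6c1 changed sign, to -0.04, without AAV-Ctrl 2, and so did the median of the 7 genes, which was -0.038 to 0.076 over the runs that left out a control. At a threshold of 2 log2 units 0 Ly6 genes were called lower, with 5 genes called higher and 39 lower over all, and at 0.5 these were 143 and 640, against 28 and 212 at 1. Genes called lower were 396 with a pseudocount of 0.1 and 93 at a mean FPKM of at least 5. Leaving out a control gave 40 to 49 genes called higher.

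With pseudocounts of 0.1 and 0.01, list medians were -1.90 and -1.93 (macrophage), -2.50 and -2.71 (B cell), -0.90 and -0.97 (plasmacytoid dendritic cell), -0.59 and -0.65 (endothelium), and -1.55 and -1.66 (mesenchymal stroma). With no filter on low values they were 0.069 (IL-27 receptor), -1.07 (B cell), -0.066 (endothelium), -0.054 (stem cell) and -0.49 (stroma). After rescaling to equal totals they were -0.025 (GPI), 0.15 (IL-27 receptor) and 0.067 (late neutrophil), and by median ratios -0.0098 (GPI), 0.17 (IL-27 receptor), 0.085 (late neutrophil) and 0.26 (stem cell). Leaving out a control gave -0.035 to -0.0072 (GPI), 0.11 to 0.14 (IL-27 receptor), 0.011 to 0.031 (late neutrophil), -0.031 to 0.055 (early granule), -1.80 to -1.70 (macrophage) and -0.14 to -0.060 (T and NK cell). With 16 estimated fragments of Ly6d in AAV-IL-27, depth limits the size of its fall, and 1 AAV-IL-27 library leaves its spread between mice unknown.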

Other observations

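Other cell type lists were read for their values only. Over all genes tested, 2.32% were called lower and 0.307% higher. The endothelial list, a cell type that can carry Ly6c1 and Ly6a, had 4 tested genes with a median difference of -0.32 and 1 called lower. The mesenchymal stroma list had 6 tested genes with a median of -0.79 and 2 called lower. Most genes of these lists were too low to be tested. With no filter on low values the medians were -0.066 (endothelium) and -0.49 (stroma). The stem and multipotent progenitor list had 2 tested genes with a median of 0.20, and the T and NK cell list 3 with a median of 0.04, with 0 called in either. The plasmacytoid dendritic cell list had 4 tested genes with a median of -0.54, of which 1, Spib, was called lower. The macrophage and erythroid lists had medians of -1.70 and -2.81.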
